A study of Mus musculus with 2 samples.

Results

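The genes described are those of the mitochondrial ribosome whose symbols begin with Mrps (small subunit) or Mrpl (large subunit) followed by a number. They were chosen by symbol alone among protein-coding genes of the GENCODE M21 mouse annotation, and the rule itself uses no measured value. Of 78 annotated genes that matched, 77 were listed in both gene tables, 29 small and 48 large subunit genes among 21474 protein-coding genes; Mrpl33 was not analysed here. RNA came from the whole forebrain of newborn B6NCrl mice (postnatal day 0), for which the labels name no mutation, transgene or treatment and give no sex. A library was made from 13 pg of the RNA over 200 nt of 1 pup, equivalent to the content of 1 cell, so each library samples a mixture of forebrain cells and not a single cell. Of the 2 libraries, 1 came from pup 1 (replicate 1) and 1 from pup 3 (replicate 2), and both belong to the same group, although the labels give both pups a single donor identifier. The design therefore implies no contrast between conditions, and the question addressed is which of these transcripts such a small input holds and how far the libraries differ.

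Mitochondria keep a small genome of their own, and the few proteins it encodes, all of them subunits of the respiratory chain and ATP synthase, are made on a dedicated ribosome inside the organelle. The ribosomal RNAs come from the mitochondrial genome, whereas every protein of this ribosome is encoded in the nucleus, made in the cytosol and imported. Some of these proteins descend from bacterial ribosomal proteins and others are found only in mitochondria. The small subunit reads the mRNA, and the large subunit forms the peptide bond and feeds the nascent protein towards the inner membrane. Because each subunit needs its proteins in fixed proportions, the genes are often treated as a single housekeeping programme, which neurons, with their high demand for respiration, also use.

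Library totals were 41082811 expected counts for pup 1 and 29881397 for pup 3, of which the members held 165081 (0.402%) in pup 1 and 147158 (0.492%) in pup 3. A floor of 3 reads corresponds to 0.0730 CPM (read counts scaled to library size) in pup 1 and 0.1004 CPM in pup 3. Floors here cover counting error alone, and the deposited credibility bounds also cover the assignment of reads within a library. Neither covers error that arose before sequencing, because the reads carry no molecular identifiers. Spike-in RNA took 4.46% of TPM (reads per transcript length, with an equal sum in every library) in pup 1 and 7.30% in pup 3, and transcripts of the mitochondrial chromosome 5.02% in pup 1 and 6.003% in pup 3. The neuronal markers Tubb3, Stmn2, Gap43, Neurod6, Bcl11a and Gad1 were all present in both libraries, at 90.6 to 6275 TPM in pup 1 and 67.5 to 1872 TPM in pup 3. Of the hindbrain and posterior genes Hoxa2, Hoxa4 and Hoxc8, only Hoxa2 had any read, 1 in pup 1. Of 11 markers of erythroid, choroid plexus, meningeal, microglial and endothelial cells, 11 were found in pup 1 (2938 TPM in sum) and 9 in pup 3 (3797 TPM in sum). Choroid plexus Folr1 (85.3 TPM) and microglial Csf1r (34.5 TPM) were found in pup 1 and absent from the reads of pup 3. The other marker of each of these cell types was found in both pups. Choroid plexus Ttr had 1724 TPM in pup 1 and 1898 TPM in pup 3, and microglial C1qb 104 TPM in pup 1 and 64.4 TPM in pup 3. Endothelial Esam reached 1.39 TPM in pup 1 and 71.9 TPM in pup 3, whereas endothelial Cldn5 had 41.8 TPM in pup 1 and 82.2 TPM in pup 3. How far these cell types enter the differences described here was not tested, and in tissue RNA fewer cells of a type and less RNA per cell cannot be told apart.

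Promoters are a feature that the choice by symbol did not use. RefSeq start sites (GRCm38.p6), with the 250 bases before and the 50 after each, were matched by symbol for 68 of the 77 members and 27025 genes in all. Letters were searched on both strands, in any start site of a gene. The ETS core CCGGAA, the letters read by GABPA (nuclear respiratory factor 2), occurred in 39 members (57.4%), against 16.7% of all genes with a promoter and 34.6% of protein-coding genes found in both pups. The NRF1 letters, GCGCA followed by any base and GCGC and read by nuclear respiratory factor 1, occurred in 13 members (19.1%), against 5.19% of all genes and 14.4% of those found in both pups. The YY1 letters AAGATGGCG occurred in 8 members (11.8%), against 1.64% and 4.11%. The TATA letters TATAAA occurred in 5 members (7.35%), against 15.7% and 8.67%. At least 1 of the ETS, NRF1 and YY1 letters stood in 73.5% of the members, 20.97% of all genes and 45.5% of those found in both pups. The end of the ETS core can overlap the start of the YY1 letters, but 0 of the 68 members had that joined form. Matching letters are a description and not evidence that a factor binds.

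The promoters below belong to the member with the highest level, to a pair missing from pup 3, and to the member found in neither pup. Each runs from 150 bases before the start site to 10 bases after it, 5′ to 3′, on the plus strand. Capitals mark ETS or NRF1 letters on either strand. Their positions are chr1:37890327-37890486 for Mrpl30, chr11:115403602-115403761 for Mrpl58, chr1:79775868-79776027 for Mrpl44 and chr1:42851083-42851242 for Mrps9.
Mrpl30: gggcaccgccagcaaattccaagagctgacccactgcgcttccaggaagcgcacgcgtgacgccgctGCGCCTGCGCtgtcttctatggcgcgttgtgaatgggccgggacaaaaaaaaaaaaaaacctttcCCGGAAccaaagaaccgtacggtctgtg
Mrpl58: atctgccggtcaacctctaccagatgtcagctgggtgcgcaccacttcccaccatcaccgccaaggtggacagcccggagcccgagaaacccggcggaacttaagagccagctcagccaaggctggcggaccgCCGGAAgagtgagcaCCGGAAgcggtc
Mrpl44: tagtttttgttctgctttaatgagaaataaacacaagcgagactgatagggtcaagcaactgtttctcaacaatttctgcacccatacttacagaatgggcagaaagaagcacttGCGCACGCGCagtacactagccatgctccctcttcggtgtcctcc
Mrps9: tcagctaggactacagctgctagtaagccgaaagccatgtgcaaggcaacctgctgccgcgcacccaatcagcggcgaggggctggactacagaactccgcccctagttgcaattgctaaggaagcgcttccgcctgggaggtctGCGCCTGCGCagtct
In these windows Mrpl30 held 1 ETS and 1 NRF1 match, Mrpl58 2 ETS matches, and Mrpl44 and Mrps9 1 NRF1 match each. In the promoters shown, such letters stood before the highest gene, before the pair missing from pup 3 and before a gene with next to no reads. Other members had no ETS, NRF1 or YY1 letters, among them Mrpl20, of high level, and Mrps2, found in pup 1 alone. Across members, the median of mean TPM was 83.9 with the ETS core and 70.0 without it, and 111 with the NRF1 letters and 79.1 without them. It was 65.9 with the YY1 letters and 83.3 without them, and 112 with the TATA letters and 79.1 without them.

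A gene was called found in a library at 1 TPM or more. By that measure 74 of the 77 members were found in pup 1, where 42.2% of all protein-coding genes were found, and 67 in pup 3, where 29% were. Both pups held 65 members (84.4%), against 24.8% of all protein-coding genes. Found in pup 1 alone were 9 members (background 17.4%), in pup 3 alone 2 (background 4.21%) and in neither 1 (background 53.6%). The median level of the members was 64.8 TPM in pup 1 and 67.3 TPM in pup 3, and their sum was 6718 TPM in pup 1 and 8109 TPM in pup 3. A member held a median of 1496 reads in pup 1 and 1400 in pup 3, so most values rest on many more reads than the floor. Every member had at least 1 read in pup 1, and 6 were without reads in pup 3.

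**Figure D1:**
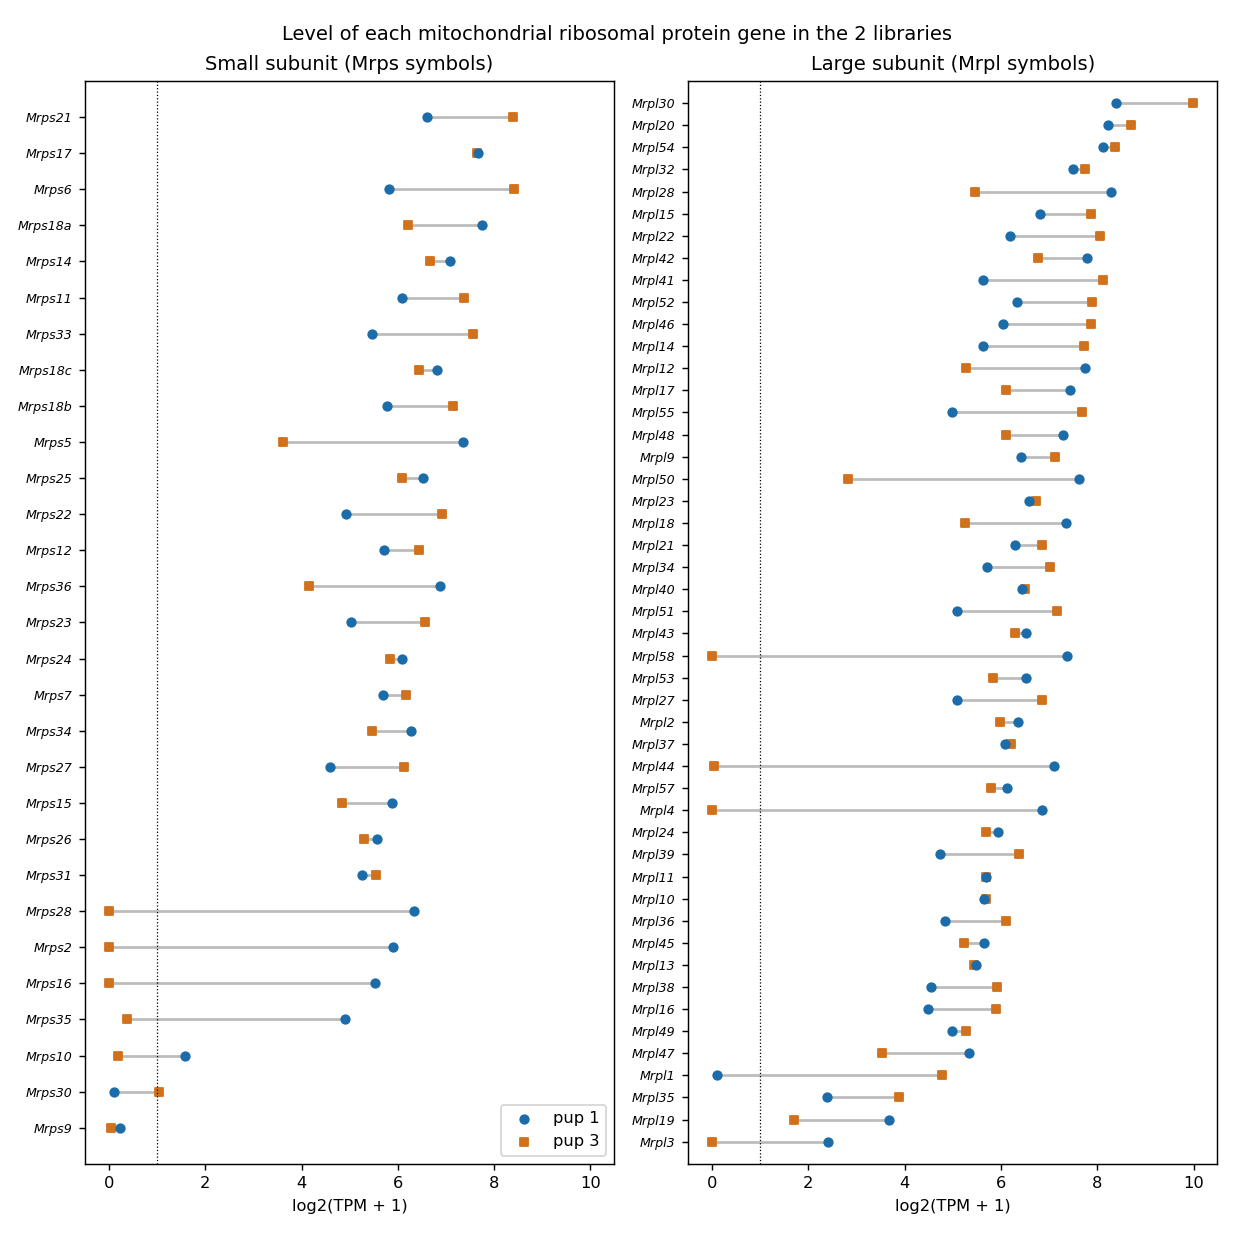
Levels of the 29 small (left) and 48 large subunit genes (right) as log2(TPM + 1) in pup 1 (circles) and pup 3 (squares), ordered by mean TPM, with a line joining the values of a gene and a dotted line at 1 TPM. Long lines ending at the left edge are genes such as Mrpl58, Mrpl4, Mrps28, Mrps2 and Mrps16, which had 0 reads in pup 3.

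At a mean of 50 TPM or more, the members were found about as often as other genes. At 100 TPM or more all 25 members were found in both pups, as were 99.1% of protein-coding genes. At 50 to 100 TPM the share was 89.7% (26 of 29 members), against 91.5% of protein-coding genes. At 10 to 50 TPM it was 70.6% (12 of 17), against 53.1%, and at 1 to 10 TPM 2 of 4 members, against 15.2%. The mean level includes the pup that lacks the gene, so the level in 1 pup was also used to look at the other. Of 70 members at 20 TPM or more in pup 1, 7 were not found in pup 3, against 29.1% of the protein-coding genes at that level. Of 60 members at 20 TPM or more in pup 3, 1 (1.67%) was not found in pup 1, against 10.9%.

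**Figure D2:**
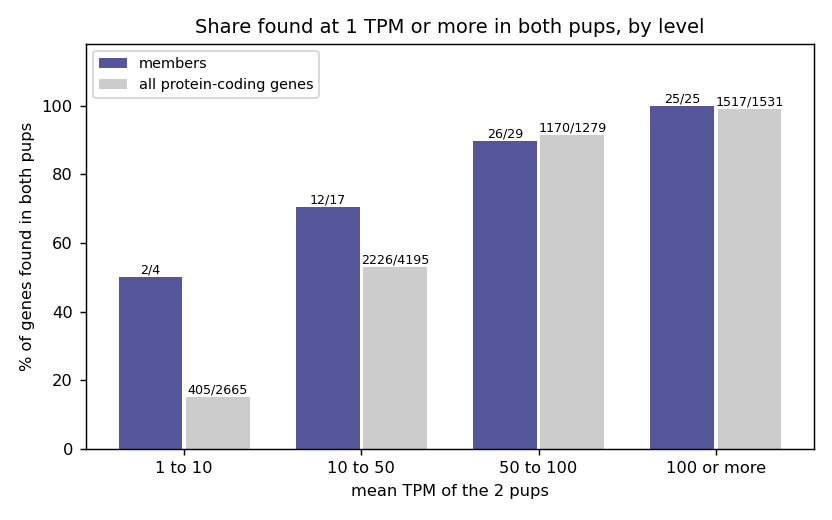
Percentage of genes found at 1 TPM or more in both pups by mean TPM, for the members (dark) and all protein-coding genes (grey), with counts above the bars. Members run from 2 of 4 in the lowest class to 25 of 25 at 100 TPM or more.

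The small subunit carries the decoding site, and its most abundant genes mixed ancient and mitochondrial components. Mrps21, a counterpart of a bacterial small subunit protein, had 96.5 TPM in pup 1 and 337 TPM in pup 3 (ENSMUSG00000054312, chr3:95862634-95871519). It was thus well above the subunit's median in both libraries but over 2-fold apart. Mrps17, another bacterial counterpart, had 203 TPM in pup 1 and 198 TPM in pup 3, and its credibility bounds overlapped (194 to 206 TPM in pup 1, 187 to 202 TPM in pup 3). These bounds, deposited with each value, cover read assignment within a library and not the spread between animals.

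Mrps6, which pairs with the Mrps18 type of protein in the platform of bacterial ribosomes, had 55.6 TPM in pup 1 and 339 TPM in pup 3, a log2 ratio of -2.59 (log2 of TPM + 1 in pup 1 over TPM + 1 in pup 3). Mrps33, a protein found only in mitochondrial ribosomes, had 43.4 TPM in pup 1 and 187 TPM in pup 3 (log2 ratio -2.08). Mrps14, a bacterial counterpart in the head of the subunit, had 134 TPM in pup 1 and 99.99 TPM in pup 3. Mrps11, a platform protein, had 66.5 TPM in pup 1 and 164 TPM in pup 3. Among these, pup 3 was higher for Mrps6, Mrps33 and Mrps11 and pup 1 for Mrps14. Mrps5, at the mRNA entrance, went furthest towards pup 1 among small subunit genes found in both pups, with 162 TPM in pup 1 and 11.3 TPM in pup 3. Mrps12, the counterpart of the bacterial protein that monitors codon pairing, had 51.1 TPM in pup 1 and 85.7 TPM in pup 3.

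Paralogs that occupy different places are encoded by the 3 Mrps18 genes. Mrps18c, the counterpart in the small subunit of the bacterial protein, was close between pups, with 111 TPM in pup 1 and 86.0 TPM in pup 3. Mrps18b, also in the small subunit, had 53.5 TPM in pup 1 and 141 TPM in pup 3. Mrps18a, which sits in the large subunit despite its symbol, had 214 TPM in pup 1 and 73.2 TPM in pup 3. These paralogs thus did not share a direction.

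In the large subunit, Mrpl30 was the highest of all 77 members, with 336 TPM and 4919 reads in pup 1 and 1019 TPM and 11628 reads in pup 3 (ENSMUSG00000026087, chr1:37890477-37898535, plus strand). Mrpl20, which in bacteria is needed early in assembly of the subunit, followed with 298 TPM in pup 1 and 414 TPM in pup 3. Mrpl54, a mitochondria-specific protein, had 275 TPM in pup 1 and 327 TPM in pup 3. These 3 genes led the members by mean TPM, and Mrpl20 and Mrpl54 differed by less than 2-fold.

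Mrpl32, whose protein is matured by the inner membrane m-AAA protease before it joins the ribosome, had 178 TPM in pup 1 and 214 TPM in pup 3. Mrpl28, a bacterial counterpart, had 312 TPM in pup 1 and 43.2 TPM in pup 3. Mrpl15, also a bacterial counterpart, had 111 TPM in pup 1 and 234 TPM in pup 3, over 2-fold in TPM. Its log2 ratio of -1.08 became -0.38 when reads were compared without transcript lengths (CPM with TMM factors). Mrpl42, a mitochondria-specific protein, had 219 TPM in pup 1 and 107 TPM in pup 3. Pup 1 was higher for Mrpl28 and Mrpl42 and pup 3 for Mrpl32 and Mrpl15.

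Around the peptide exit tunnel, Mrpl22, which lines the tunnel, had 71.8 TPM in pup 1 and 266 TPM in pup 3. Mrpl4, whose bacterial counterpart reaches into it, had 114 TPM in pup 1 and 0 in pup 3. Mrpl24, near the exit, had 60.7 TPM in pup 1 and 50.8 TPM in pup 3. Of these genes, Mrpl22 was higher in pup 3, Mrpl4 was found in pup 1 alone and Mrpl24 lay within 2-fold. They were picked in part by their values and leave out Mrpl23, described below, so they do not describe the region.

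The stalks that recruit translation factors and move tRNA gave a similar mixture. Mrpl12, the stalk protein that contacts translation factors, had 213 TPM in pup 1 and 37.5 TPM in pup 3. Mrpl10, which anchors it, had 49.0 TPM in pup 1 and 50.2 TPM in pup 3, and Mrpl11, at the base of the stalk, 50.2 TPM in pup 1 and 50.8 TPM in pup 3. Credibility bounds of both overlapped between pups, whereas Mrpl12 was over 5-fold higher in pup 1. Mrpl1, of the opposite stalk, had 0.08 TPM (4 reads) in pup 1 and 26.2 TPM (1306 reads) in pup 3.

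The largest ratios among members at a mean of 10 TPM or more and found in both pups ran both ways. Towards pup 3, Mrpl55, a bacterial counterpart, had 30.6 TPM in pup 1 and 204 TPM in pup 3 (log2 ratio -2.69). Mrpl41, a mitochondria-specific protein, had 48.6 TPM in pup 1 and 276 TPM in pup 3 (log2 ratio -2.48). Towards pup 1, Mrpl50, also mitochondria-specific, had 197 TPM and 10524 reads in pup 1 and 6.08 TPM and 284 reads in pup 3 (log2 ratio 4.80).

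Taken by subunit, small subunit genes had a median of 55.6 TPM in pup 1 and 66.7 TPM in pup 3, and large subunit genes 70.4 TPM in pup 1 and 67.4 TPM in pup 3. Small minus large, the difference of median log2(TPM + 1) was -0.44 for the mean of the pups. It was -0.33 in pup 1 and -0.02 in pup 3, so pup 3 alone gave next to no difference. Mean TPM per gene was 70.1 for small and 97.6 for large subunit genes in pup 1, and 81.8 for small and 119.5 for large in pup 3. Without Mrpl30 the large subunit means were 92.5 TPM in pup 1 and 100.4 TPM in pup 3. Both pups held 22 of 29 small subunit genes (75.9%) and 43 of 48 large subunit genes (89.6%), with 5 small and 4 large subunit genes found in pup 1 alone.

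Symbols and structure do not match throughout. Mrps30 and Mrps18a belong to the large subunit, and Mrps36 is a component of the 2-oxoglutarate dehydrogenase complex and not of the ribosome. Mrps30 was near the threshold, with 0.08 TPM (3 reads) in pup 1 and 1.07 TPM (37 reads) in pup 3. Mrps36 had 117 TPM in pup 1 and 16.9 TPM in pup 3. Of 5 ribosome subunits without an Mrp symbol, 3 were found in both pups. Chchd1 had 243 TPM in pup 1 and 191 TPM in pup 3, Dap3, a GTP-binding protein of the small subunit, 107 TPM in pup 1 and 122 TPM in pup 3, and Aurkaip1 176 TPM in pup 1 and 60.3 TPM in pup 3. Ptcd3 (44.5 TPM in pup 1, 0.90 TPM in pup 3) and Gadd45gip1 (1.02 TPM in pup 1, 0 in pup 3) were found in pup 1 alone. With genes placed by structure, 81 in all, the small minus large difference was -0.35 for the mean, -0.28 in pup 1 and 0.01 in pup 3.

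The members missing from 1 library were not all weak. Mrpl58, a peptidyl-tRNA hydrolase built into the large subunit (chr11:115403752-115412674, plus strand), had 166 TPM and 3462 reads in pup 1 and 0 reads in pup 3. Its deposited upper credibility bound in pup 3 was 1.58 TPM, which belongs to a posterior mean that is above 0 even without reads. In pup 1, 36.5% of the TPM of Mrpl58 was assigned to protein-coding transcripts, led by Mrpl58-202 (38.5 TPM, 23.3%). The rest was assigned to retained intron and processed transcripts. Mrpl44, which has a ribonuclease III-like fold and is required for large subunit assembly in human cells, had 136 TPM and 4784 reads in pup 1 and 1 read (0.03 TPM, upper bound 0.256 TPM) in pup 3. Mrpl4 had 3595 reads in pup 1 and 0 in pup 3 (upper bound 0.108 TPM). These 3 genes stood above the median member in pup 1.

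In the small subunit, the genes with 0 reads in pup 3 were Mrps28, Mrps2 and Mrps16. All are bacterial counterparts, as are 45 of the 77 members. Mrps28 had 79.8 TPM and 1449 reads in pup 1 and 0 reads in pup 3 (upper bound 0.184 TPM). Mrps2 had 58.7 TPM and 3086 reads in pup 1 and 0 reads in pup 3 (upper bound 0.122 TPM). Mrps16 had 45.3 TPM and 561 reads in pup 1 and 0 reads in pup 3 (upper bound 0.269 TPM). For each of these 6 genes the bounds of the pups lay apart. That was fixed by the choice of genes high in pup 1 with next to no reads in pup 3. Across all protein-coding genes at a mean of 10 TPM or more, bounds lay apart for 94.4%. The other members found in pup 1 alone were Mrps35 (29.1 TPM in pup 1, 2 reads in pup 3), Mrpl3 (4.29 TPM in pup 1, 0 reads in pup 3) and Mrps10 (1.98 TPM in pup 1, 3 reads in pup 3). In the opposite direction only Mrpl1 and Mrps30 were found in pup 3 alone. Mrps9, whose bacterial counterpart reaches the peptidyl tRNA site, had 6 reads in pup 1 and 1 read in pup 3 and was found in neither.

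The threshold touched few members. In pup 1 the nearest values were 1.98 TPM (Mrps10) above it and 0.17 TPM (Mrps9) below it. In pup 3 they were 1.07 TPM (Mrps30) above it and 0.30 TPM (Mrps35) below it.

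**Figure D3:**
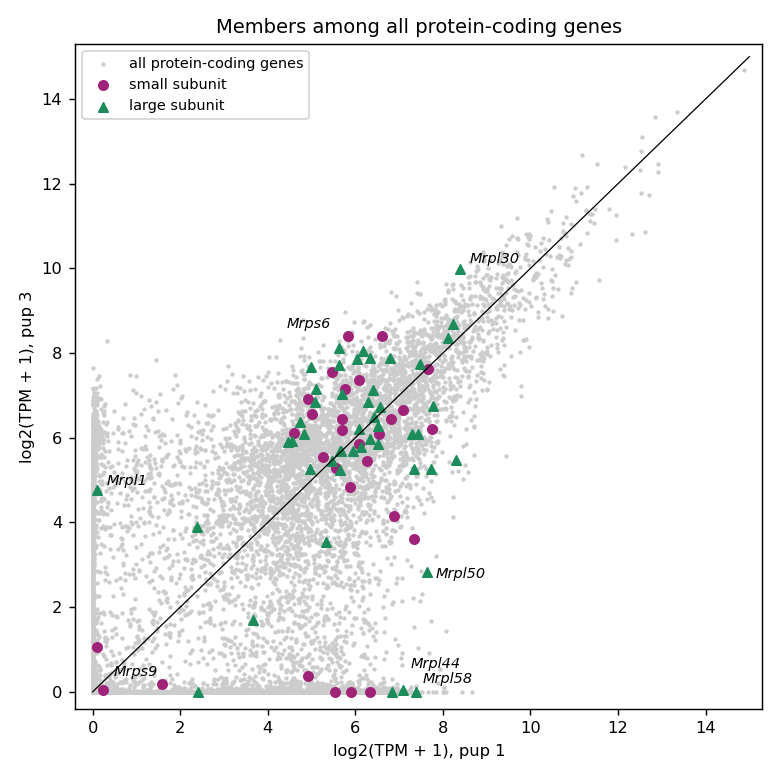
Level in pup 1 (horizontal) and pup 3 (vertical) as log2(TPM + 1) for small subunit genes (circles), large subunit genes (triangles) and all protein-coding genes (grey), with the line of equality. Members had a median of 64.8 TPM in pup 1 and 67.3 TPM in pup 3, against 0.01 TPM in pup 1 and 0 in pup 3 for all protein-coding genes. Those missing from pup 3 lie along the lower edge.

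The median log2 ratio over the 77 members was -0.04, against 0.49 over all protein-coding genes with any signal. The second value depends on the measure: posterior mean TPM gave -0.03 for members and -0.013 for protein-coding genes, and a minimum of 3 reads per library gave -0.26 for members and -0.096 for protein-coding genes. Over genes found in both pups it was -0.25 for members and -0.13 for protein-coding genes. At 2-fold or more, 22 members were higher in pup 1 (background 42.8%), 25 were higher in pup 3 (background 20%) and 30 lay within 2-fold. Among the 71 members at a mean of 10 TPM or more, 19 were higher in pup 1 (background 38%) and 24 in pup 3 (background 25.7%). The credibility bounds did not overlap for 34 members higher in pup 1 (background 54.4%) and 36 higher in pup 3 (background 31.3%). They overlapped for the other 7, Mrps17, Mrps9, Mrpl23, Mrpl40, Mrpl11, Mrpl10 and Mrpl13. At a mean of 10 TPM or more, 91.5% of members had bounds apart, close to the background of 94.4%. With 1 library per pup no difference between pups could be tested, and the spread of animals and of library preparation cannot be told apart.

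Over all levels together, members found in both pups had about the same standard deviation as other genes, and a smaller share lay within 2-fold. The standard deviation of their log2 ratios was 1.56 (65 genes), against 1.64 for all protein-coding genes found in both, and 28 (43.1%) lay within 2-fold, against 51.8%. For nuclear respiratory chain subunits it was 0.71, with 72.0% within 2-fold, and for cytosolic ribosomal proteins 0.96, with 78.5% within 2-fold. Those lists lie at higher levels, with medians of mean TPM of 427 and 645, against 73.7 for the members. In classes of level chosen after the values were seen, the lists were also set beside each other. At 50 to 200 TPM, 19 of 46 members (41.3%) lay within 2-fold, against 7 of 9 respiratory chain subunits (77.8%), 4 of 7 cytosolic ribosomal proteins (57.1%) and 54.6% of protein-coding genes. Within that range, 16 of 26 members at 50 to 100 TPM lay within 2-fold (61.5%), against 52.9% of protein-coding genes. At 100 to 200 TPM 3 of 20 members did, against 6 of 8 respiratory chain subunits, 4 of 6 cytosolic ribosomal proteins and 57.3% of protein-coding genes. The standard deviation of the log2 ratio was 2.10 for members there, against 1.38 for protein-coding genes. At 50 to 100 TPM it was 1.39 for members, against 1.71, and over 50 to 200 TPM 1.72 for members, against 1.59. The 3 members within 2-fold at 100 to 200 TPM were Mrpl32, Mrps14 and Mrpl9.

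Across members, log2(TPM + 1) in pup 1 and pup 3 gave Pearson's r = 0.393 and Spearman's rho = 0.241 (77 genes), and 0.288 and 0.178 for the 65 found in both. For all protein-coding genes found in both (5318 genes) the values were 0.672 and 0.648. The members span a narrower range of levels than those genes, and all points share the same 2 libraries. The order of the members in one library was therefore only weakly related to their order in the other.

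Mrps11 and Mrpl46 are neighbours on the chromosome, and both were higher in pup 3. Mrps11 (chr7:78783119-78792989, plus strand) and Mrpl46 (chr7:78775236-78783531, minus strand) point away from each other and their annotated spans overlap at their starts. Mrpl46, a mitochondria-specific large subunit protein, had 64.8 TPM in pup 1 and 233 TPM in pup 3, beside 66.5 TPM in pup 1 and 164 TPM in pup 3 for Mrps11. Both were over 2-fold higher in pup 3. The pair of Mrps11 and Mrpl46 was picked out after its values were seen, and whether the counting used strand is not given in the sources used here. In all, the spans of 40 of 77 members overlapped another listed gene, 10 on the same strand and 25 with a protein-coding gene. Among members missing from pup 3, Mrpl44 overlaps Wdfy1, which lies on the opposite strand and had 61.7 TPM in pup 1 and 94.2 TPM in pup 3.

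Shorter members had higher levels, as did shorter genes in general. Length here is the value deposited for each gene in pup 1, an average over its transcripts weighted by their shares in that pup. TPM is scaled by length, so length and level are not independent. Between this length and mean level, on log scales, r was -0.483 and rho -0.528 across members, and -0.505 and -0.513 across protein-coding genes found in both. The 37 members of 1000 bases or less had a median of 99.4 TPM and the 40 longer ones 56.4 TPM. The median member was 1037 bases long, against 2240 bases for protein-coding genes found in both.

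Genes that work with this ribosome were at lower median levels than the members, 13.9 TPM for translation factors, 13.1 TPM for synthetases, 12.3 TPM for assembly factors and 2.71 TPM for transcription and DNA maintenance (medians of mean TPM). Found in both pups were 8 of 16 translation factors, 26.3% of the synthetases, 26.1% of the assembly factors and 30.0% of the transcription and maintenance genes, so the last 3 shares lay near the 24.8% of all protein-coding genes. The list of 16 mitochondrial translation factors also takes in Oxa1l, Letm1, Lrpprc and Slirp, which are not translation factors in the strict sense. Of the 16, both pups held 8, with Oxa1l, Letm1 and Slirp among them. Pup 1 alone held a further 5 (background 17.4%), pup 3 alone 1 (background 4.21%) and neither pup 2 (background 53.6%). Slirp, an RNA-binding protein that stabilises mitochondrial mRNA, had 128 TPM in pup 1 and 229 TPM in pup 3. Tufm, the elongation factor that delivers tRNA, had 33.2 TPM in pup 1 and 138 TPM in pup 3, and Tsfm, which recharges it, 66.0 TPM in pup 1 and 53.8 TPM in pup 3.

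Of 19 mitochondrial aminoacyl-tRNA synthetases, both pups held 5, pup 1 alone a further 7 (background 17.4%), pup 3 alone 2 (background 4.21%) and neither pup 5 (background 53.6%). Lars2, for leucine, had 68.7 TPM in pup 1 and 313 TPM in pup 3. Kars, which joins lysine to its tRNA and also serves the cytosol, had 223 TPM in pup 1 and 74.5 TPM in pup 3. Rars2, for arginine, had 111 TPM in pup 1 and 0 in pup 3, and Pars2, for proline, 0 in pup 1 and 58.0 TPM in pup 3. This list thus held genes found in pup 1 alone and genes found in pup 3 alone.

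Of 23 assembly and rRNA modification factors, both pups held 6, pup 1 alone a further 8 (background 17.4%) and neither pup 9 (background 53.6%). The highest was the assembly GTPase Mtg1, with 53.1 TPM in pup 1 and 178 TPM in pup 3. Mterf3 had 47.1 TPM in pup 1 and 49.0 TPM in pup 3, and Ddx28, an RNA helicase, 20.03 TPM in pup 1 and 51.1 TPM in pup 3. Of 10 genes of mitochondrial transcription and DNA maintenance, both pups held 3, pup 1 alone a further 2 (background 17.4%) and neither pup 5 (background 53.6%). The 3 were Tfam, which packages mitochondrial DNA (63.6 TPM in pup 1, 96.8 TPM in pup 3), Ssbp1, which binds its single strands (61.5 TPM in pup 1, 27.8 TPM in pup 3), and Tfb2m, a transcription factor (7.28 TPM in pup 1, 15.4 TPM in pup 3). Both comparison lists were found more completely, with 79 of 79 cytosolic ribosomal proteins and 75 of 84 respiratory chain subunits in both pups.

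**Figure D4:**
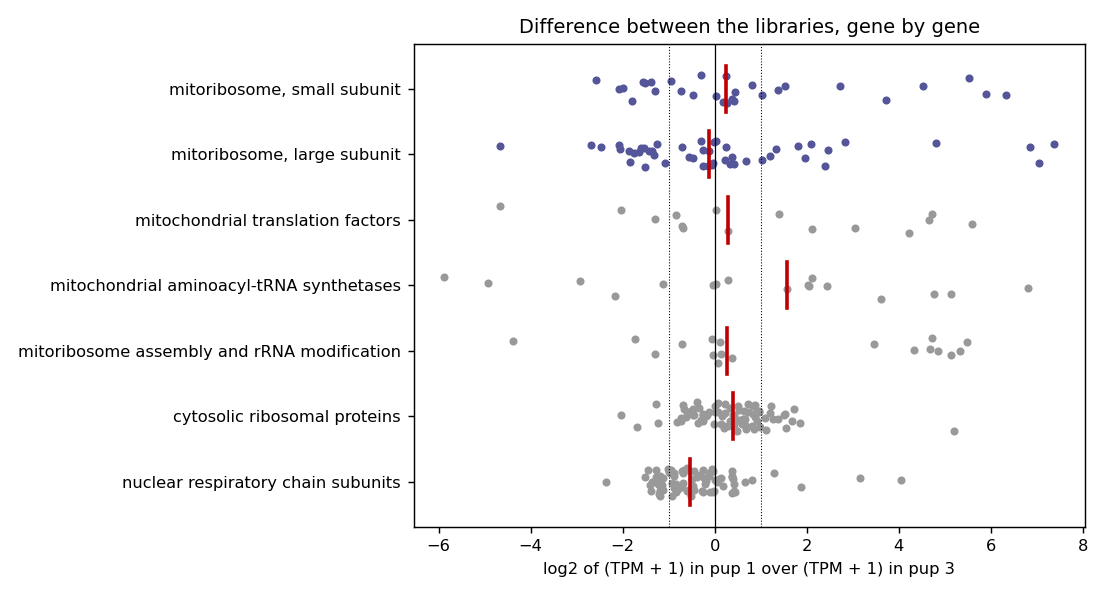
Log2 ratio of TPM + 1 in pup 1 over TPM + 1 in pup 3 for each gene with any signal, by list, with a red bar at the median and dotted lines at 2-fold. The medians were 0.24 for small and -0.13 for large subunit genes, 0.29 for translation factors, 1.57 for synthetases, 0.26 for assembly factors, 0.39 for cytosolic ribosomal proteins and -0.54 for respiratory chain subunits.

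At the level of transcripts, 40 of the 50 members found in both pups with more than 1 listed transcript had the same leading transcript in both. Types are those of the later M21 annotation, and reads shared between isoforms limit how well shares can be assigned. Among the 51 found in both at a mean of 50 TPM or more, the lead differed in 9, and in 10 it was a type that is not protein-coding in at least 1 pup. These counts were not made for all protein-coding genes, so they do not show a trait particular to the members. Mrps25, a mitochondria-specific small subunit protein, was led in pup 1 by the retained intron transcript Mrps25-201 (565 bases, 78.0% of the gene's TPM). In pup 3 it was led by the coding transcript Mrps25-203 (6073 bases, 54.2%). Mrps25 had more TPM in pup 1 (91.5, against 66.7 in pup 3) from fewer reads (1514, against 5332), and its direction depends on that assignment. In 7 of 77 members the direction of TPM differed from that of reads as CPM.

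Mrps23 was led by Mrps23-201 (1332 bases, 93.1%) in pup 1 and Mrps23-202 (332 bases, 47.5%) in pup 3. Its TPM was 31.4 in pup 1 and 94.1 in pup 3, from 985 reads in pup 1 and 807 in pup 3. Mrpl15 was led by a coding transcript in pup 1 (44.2%) and by a processed transcript in pup 3 (52.2%), as was Mrpl20 (61.5% in pup 1, 53.8% in pup 3). Mrps11 was led by a nonsense-mediated decay type in pup 1 (65.2%) and a coding one in pup 3 (59.7%). In Mrps33, Mrps18b, Mrps21 and Mrpl24 the lead passed between coding transcripts.

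Other members had a lead that was not protein-coding in both pups. Mrps14 was led by a nonsense-mediated decay type (88.0% in pup 1, 97.5% in pup 3), and so was Mrpl48 (47.2% in pup 1, 65.3% in pup 3). Mrps24 was led by a retained intron transcript (78.6% in pup 1, 80.1% in pup 3). Mrpl23 (90.3% in pup 1, 96.8% in pup 3) and Mrpl51 (61.6% in pup 1, 54.7% in pup 3) were led by processed transcripts. For Mrpl32 the only listed transcript has the nonsense-mediated decay type.

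**Figure D5:**
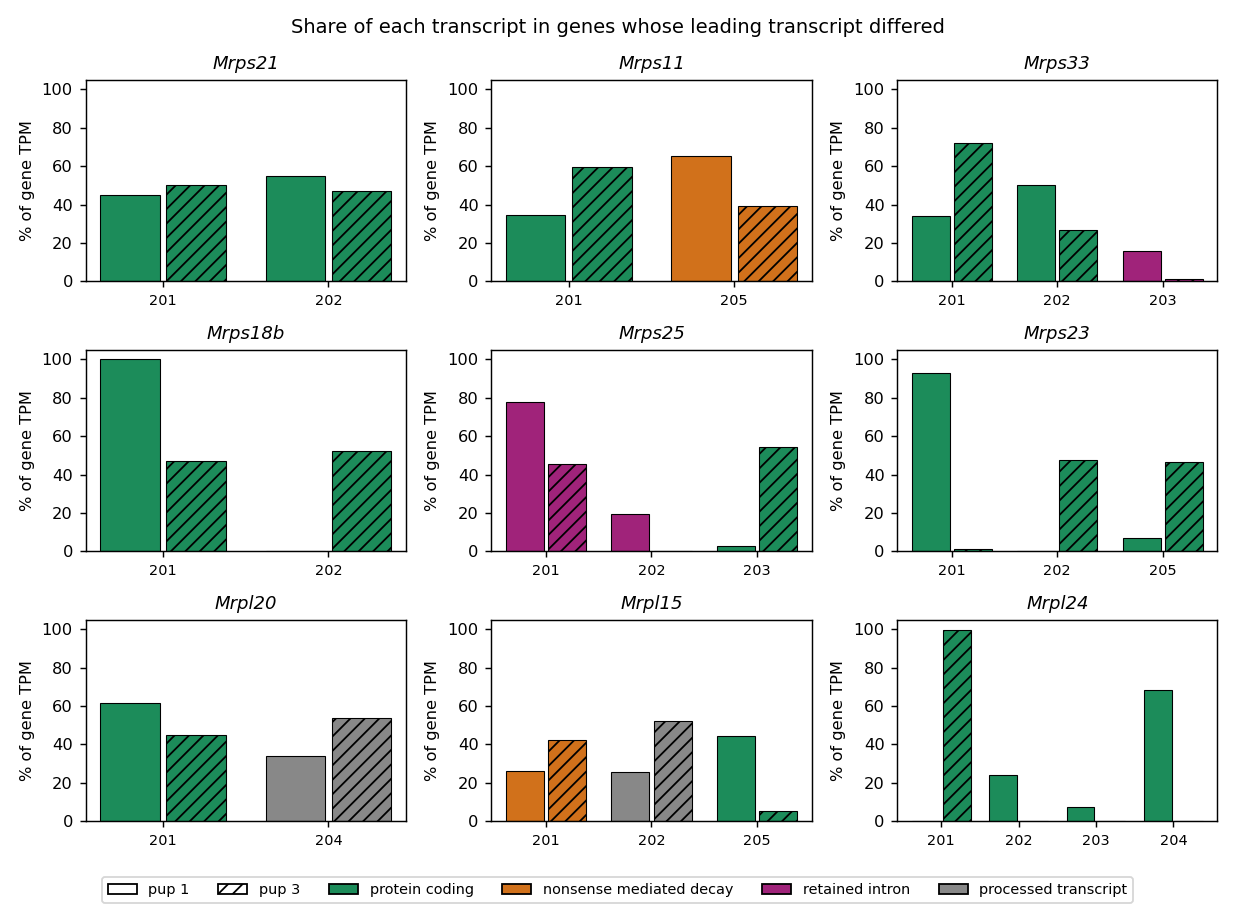
Share of each gene's TPM in its transcripts, as a percentage, in pup 1 (plain bars) and pup 3 (hatched bars), for the 9 members at a mean of 50 TPM or more whose leading transcript differed, with colour for the annotated type and transcripts under 5% in both pups left out. Mrps25 and Mrpl15 are led by different types in the pups.

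Mrpl23, which sits at the tunnel exit, has a processed copy, Mrpl23-ps1, on another chromosome (chr2:74591330-74591909, minus strand). Over 540 aligned bases the copy was 100% identical to the transcript Mrpl23-201, with 0 mismatches. A stretch of 60 bases shows the identity of Mrpl23-201 and the copy, from chr7:142535005-142535064 (plus strand) and chr2:74591816-74591875 (minus strand) of GRCm38.
Mrpl23: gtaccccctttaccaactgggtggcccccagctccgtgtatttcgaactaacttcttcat
Mrpl23-ps1: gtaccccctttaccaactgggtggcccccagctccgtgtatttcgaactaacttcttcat
Reads from such a stretch cannot be assigned to one locus by sequence. The tables gave Mrpl23 94.2 TPM in pup 1 and 104.5 TPM in pup 3, and its copy 40.1 TPM in pup 1 and 178 TPM in pup 3. Together they had 134 TPM in pup 1 and 283 TPM in pup 3, a log2 ratio of -1.07, so the level of Mrpl23 and its closeness between pups are uncertain.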

How the data were processed

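The authors deposited, for each library, 1 gene table and 1 transcript table. Expected counts (deposited estimated reads per gene) and the deposited TPM, FPKM and posterior mean TPM with its bounds were used as given, per the file headers. TPM covers spike-ins and mitochondrial genes too. A Smart-seq protocol was used, per the labels' protocols, and assembly mm10 and annotation M4 are named, per the submitters' processing notes. Not given in the sources used here are the aligner, the counter and the strand setting. Isoform shares are the deposited percent values of the transcript table, per the file headers. Names, types and positions came from GENCODE M21 by identifier; 42462 of 43346 genes matched.

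Members are defined by symbol, but this set and the lists were chosen for study with earlier results of these data known. Log2 ratios use TPM + 1, which understates the change of low genes. No test was possible with 1 library per pup. Named genes are the 8 highest per subunit, up to 6 found in 1 pup alone, the 5 largest ratios each way at a mean of 10 TPM or more, neighbours of the threshold, Mrps18 paralogs, Mrps30, Mrps36, the 3 highest of each list of mitochondrial expression genes with those found in 1 pup alone at 50 TPM or more, and members at 50 TPM or more with a changed or non-coding lead. A gene that this rule takes is not reported here. Mrps5, Mrps12, Mrps35, Mrps10, Mrpl3, Mrpl9, Mrpl10, Mrpl11, Mrpl12, Mrpl24, Mrpl46, Mrpl50 and other genes outside the rule were chosen after their values were seen. Scaling used R 4.3.3 with edgeR 4.0.16 (TMM) and DESeq2 1.42.0 (size factors only), and the rest Python 3.11.15 with pandas 2.3.3. The ratio step was tested on simulated data.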

Additional observations from a re-analysis of the deposited data

Results flagged for a closer look

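Reads at annotated pseudogenes of the members lie outside the 77 genes described, and those above the floor of 3 reads are listed here. Mrpl23-ps1 had 512 reads in pup 1 and 1989 in pup 3, at a sequence identical to that of Mrpl23 over 540 bases. Mrpl48-ps had 10.9 reads in pup 1 and 6.68 in pup 3. Mrps36-ps2 had 11.8 reads and Mrps36-ps1 6.68 reads in pup 1, and both had 0 in pup 3. Fractions of a read arise because the deposited counts share reads between features.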

How the results depend on the processing

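The count of members found in both pups was 65 and stayed between 62 and 68 under thresholds of 0.1 and 10 TPM, a minimum of 3 reads, FPKM, posterior mean TPM, rescaled TPM and placement by structure. Each pup alone gave 67 (pup 3) and 74 (pup 1). The median log2 ratio of -0.04 became -0.26 with 3 or more reads in each library, where members missing from a pup drop out, and -0.29 on FPKM, and was between -0.10 and -0.02 otherwise. The median over all protein-coding genes, 0.49 on TPM, was 0.28 on FPKM, 0.59 with TMM, 1.05 with DESeq2 size factors, -0.013 on posterior mean TPM and -0.096 with 3 or more reads in each library, so differences between pups are relative to a scale that is not fixed. The small minus large difference of -0.44 was -0.35 to -0.45 under the other settings, but ranged from -0.33 to -0.015 with each pup alone. Mrps23 changed sign, from -1.55 to 0.040 with TMM and 0.028 with DESeq2 size factors, which use reads without transcript length. Of 47 members past 2-fold, 41 to 46 were still past it under each other scale. No paired analysis was possible because the libraries form 1 group. Leaving out a pup gives no ratio. Absence at 0 reads means not detected in that library. Whether such RNA was missing from the input, not captured or not sequenced was not tested.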

Other observations

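Members were also split by descent, a grouping made after the values were seen. Of 45 with a bacterial counterpart, 37 were found in both pups, with medians of 60.7 TPM in pup 1 and 61.8 TPM in pup 3. Of 31 found only in mitochondria, 27 were found in both, with medians of 64.8 TPM in pup 1 and 68.5 TPM in pup 3. Median log2 ratios were -0.02 for the 45 and -0.12 for the 31. The medians of both classes lay close together in each pup.

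The members were spread over 17 chromosomes, with 11 on chromosome 11, 8 on chromosome 17 and 7 on chromosome 6.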
